A study of Saccharomyces cerevisiae with 12 samples.

Results

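The comparison described here set 3 RiboMeth-seq libraries of yeast cells with catalytically inactive Dbp7 against 3 libraries of wild-type cells, 6 of the 12 libraries in the series, chosen by the groups in their titles. The first group, Δdbp7 + Dbp7DQGD, lacked the chromosomal DBP7 gene and carried a low-copy pRS415 plasmid from which Dbp7 with a glutamine in place of the glutamate of its DEGD motif was expressed under the DBP7 promoter. The second, WT + EV, was a wild-type strain with the empty plasmid. Cells of both groups were harvested during exponential growth, no age or further treatment being part of the design, and total RNA was analyzed. Per the study, cells with Dbp7DQGD grow more slowly than wild-type cells, so that growth and helicase activity cannot be told apart. Libraries of WT + EV held 8578561 to 23549872 read ends and those of Δdbp7 + Dbp7DQGD 5580519 to 10361153. The labels name no batch, but from the scores alone the groups were inferred to belong to different sets of libraries. Deviations of same-numbered libraries from their group means were shared between WT + EV and Δdbp7 + EV, and between Δdbp7 + Dbp7WT and Δdbp7 + Dbp7DQGD, but not across these sets, so the strain and the set of libraries cannot be told apart. Values of Δdbp7 + Dbp7WT, which carried plasmid-borne wild-type Dbp7 and fell in the same set as Δdbp7 + Dbp7DQGD, are therefore given beside the main ones. Tests within this set did not pair same-numbered libraries. A site that did not pass there is therefore not shown to be unchanged.

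Dbp7 is an RNA helicase of the DEAD-box type that acts in the nucleolus on early precursors of the large (60S) ribosomal subunit. Box C/D snoRNPs are small RNA-protein complexes in which a guide snoRNA base pairs with pre-rRNA and the methyltransferase Nop1 (fibrillarin in human) modifies the ribose of the nucleotide paired with the fifth guide position upstream of box D. Helicases are known to release snoRNAs from pre-rRNA. RiboMeth-seq reads the result in mature rRNA, because alkaline hydrolysis rarely cuts the backbone next to a methylated ribose. The RMS score is 1 minus the number of read ends at a nucleotide over the weighted mean of the 6 nucleotides on each side, and stands for the fraction of rRNA molecules methylated there. Of the 55 sites compared, 18 belong to the 18S and 37 to the 25S rRNA.

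Inactive Dbp7 went with lower methylation at 9 of the 55 sites (16.4% of those tested; limma, adjusted p under 0.05), all of them in the 25S rRNA, and with higher methylation at 0 (0.0%). The decreases were not particular to the inactive protein. In Δdbp7 + EV, the deletion strain with the empty plasmid, the mean scores at these 9 sites were 0.711 to 0.949, each below that of WT + EV. Between Δdbp7 + Dbp7DQGD and Δdbp7 + EV limma called 0 of the 55 sites. That comparison runs across the library sets, so the sites are not shown to be equal in these groups. The sequences around the 9 are shown to place each methylated nucleotide in its rRNA context. They are windows of 25 nucleotides of RDN25-1 (chromosome XII), written 5′ to 3′ as the deposited files spell the 25S rRNA, with the methylated nucleotide in capitals at the center.
C650: cgucuugaaacaCggaccaaggagu
C663: ggaccaaggaguCuaacgucuaugc
G867: uggaggcucguaGcgguucugacgu
A876: guagcgguucugAcgugcaaaucga
U898: cgaucgucgaauUuggguauagggg
A1449: cuuggugguaguAgcaaauauucaa
A2220: augucaaagugaAgaaauucaacca
A2640: aucuguuaaacgAuaacgcagaugu
U2729: uuugauuuucagUgugaauacaaac
The methylated nucleotide was A at 4 of these sites, C at 2, U at 2 and G at 1, against 20, 10, 10 and 15 of all 55. The windows held 7 to 15 G or C (median 13), while those of all sites held 6 to 17 (median 11). The windows of C650 and C663 overlap, and that of A876 overlaps those of G867 and U898, which do not overlap each other.

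The largest decrease among these sites was at C663, a target of snR58. Its RMS score was 0.829, 0.867 and 0.795 in the WT + EV libraries (0.830 ± 0.0358, SD, n = 3) and 0.637, 0.665 and 0.710 in those of Δdbp7 + Dbp7DQGD (0.671 ± 0.0372, SD, n = 3). Every library with inactive Dbp7 thus lay below every wild-type one. The mean fell by 0.159 (SE 0.0353, adjusted p = 0.0266), and the unmethylated share went from 16.99% to 32.9%. In Δdbp7 + Dbp7WT, C663 scored 0.776, 0.801 and 0.843, and the difference of Δdbp7 + Dbp7DQGD from these libraries was -0.136 (adjusted p = 0.0341).

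C650, a target of U18, was almost fully methylated in wild-type cells, with 0.967, 0.971 and 0.977. With inactive Dbp7 it scored 0.896, 0.834 and 0.908, a difference of -0.0925 (SE 0.0251, adjusted p = 0.0333). The unmethylated share thereby rose from 2.80% to 12.1%, or 4.30-fold, the largest relative change of the 9 sites. U18 also guides the nucleotide directly before it, A649, which scored 0.981 to 0.991 in wild-type and 0.974 to 0.988 in Δdbp7 + Dbp7DQGD libraries, a difference of -0.00407 (adjusted p = 0.711). Of these neighbors with the same guide only C650 passed, and the difference between them was not itself tested. At C650 the Δdbp7 + Dbp7WT libraries scored 0.957, 0.871 and 0.959 and the difference from them was -0.0493 (adjusted p = 0.304).

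U898, guided by snR40, scored 0.846, 0.798 and 0.848 in WT + EV and 0.773, 0.787 and 0.749 in Δdbp7 + Dbp7DQGD. The groups lay close together without overlap, and the score fell by 0.0607 (SE 0.0177, adjusted p = 0.0441). Against Δdbp7 + Dbp7WT, with 0.836, 0.877 and 0.830, the difference was -0.0778 (adjusted p = 0.0295). The second target of snR40, G1271 of the 18S rRNA, scored 0.935 to 0.990 and 0.945 to 0.991 in wild-type and inactive Dbp7 libraries, a difference of 0.0101 (adjusted p = 0.802).

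A2640, a target of snR68, scored 0.945, 0.935 and 0.895 in WT + EV. It scored 0.873, 0.864 and 0.795 in Δdbp7 + Dbp7DQGD and thus fell by 0.0809 (SE 0.0196, adjusted p = 0.0266). The Δdbp7 + Dbp7WT libraries, at 0.903, 0.906 and 0.909, lay above all 3 with inactive Dbp7 and inside the wild-type range, and the difference from them was -0.0616 (adjusted p = 0.0793). U2729, guided by snR51, went from 0.935, 0.968 and 0.947 to 0.924, 0.893 and 0.891 (-0.0473, SE 0.0127, adjusted p = 0.0333), and from Δdbp7 + Dbp7WT it differed by -0.0273 (adjusted p = 0.272). For both sites the within-set difference thus had the same sign but did not pass in this fit, which left same-numbered libraries unpaired.

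The remaining decreases were at sites close to full methylation. A1449, one of 3 targets of U24, had the smallest adjusted p of all sites: it scored 0.976, 0.979 and 0.971 in WT + EV and 0.914, 0.944 and 0.928 in Δdbp7 + Dbp7DQGD (-0.0468, SE 0.00801, adjusted p = 0.0123). The other U24 targets, C1437 and G1450, differed by -0.0225 (adjusted p = 0.449) and 0.00487 (adjusted p = 0.84). G867, guided by snR50, scored 0.951, 0.970 and 0.945 against 0.886, 0.916 and 0.911 (-0.0513, SE 0.0122, adjusted p = 0.0266). A876, guided by snR72, scored 0.949, 0.940 and 0.953 against 0.898, 0.927 and 0.911 (-0.0354, adjusted p = 0.0266). These sites were separated in the same way as A1449, with no library of one group inside the range of the other. A2220, guided by snR47, had the tightest values, 0.977, 0.981 and 0.979 against 0.947, 0.936 and 0.947 (-0.0355, adjusted p = 0.0266). In the within-set comparison the differences were -0.0405 at A1449, -0.0477 at G867, -0.0394 at A876 and -0.0368 at A2220 (adjusted p from 0.0295 to 0.0341), and limma called 6 of 55 sites there, all lower (10.9%). Both comparisons use the same Δdbp7 + Dbp7DQGD libraries, so they are not independent.

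**Figure D1:**
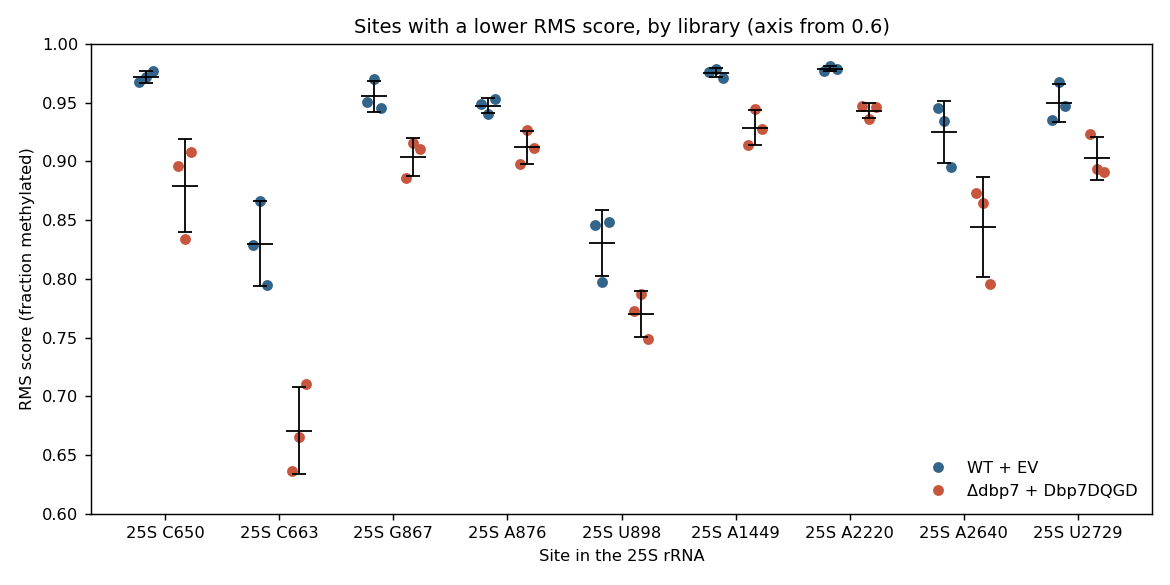
RMS score (fraction methylated, axis from 0.6 to 1) at the 9 sites of the 25S rRNA that passed in limma, with 1 point per library (blue WT + EV, red Δdbp7 + Dbp7DQGD, 3 each) and black bars for the mean and SD. At each site the 3 red points lie below the 3 blue ones, from a small gap at U898 to the wide one at C663.

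The read ends around 3 of these sites show where the signal lies. At C650 the number of read ends relative to the flanking mean was 0.0327, 0.0285 and 0.0228 in WT + EV and 0.104, 0.166 and 0.0920 in Δdbp7 + Dbp7DQGD, while the A649 next to it stayed between 0.01001 and 0.0281 in all 6 libraries. At C663 the relative number of ends was 0.133 to 0.205 in wild-type libraries and 0.290 to 0.363 with inactive Dbp7, and at the nucleotides on each side it was 0.770 to 1.17. The groups were thus apart at the methylated nucleotide and overlapped at its direct neighbors. They were not apart there alone. At A665, 2 nucleotides after C663, the relative number was 0.755 to 0.872 in wild-type libraries and 0.893 to 1.09 with inactive Dbp7. Around C650 the groups were also apart at A645 and from A657 to A660, where libraries with inactive Dbp7 had fewer ends.

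**Figure D2:**
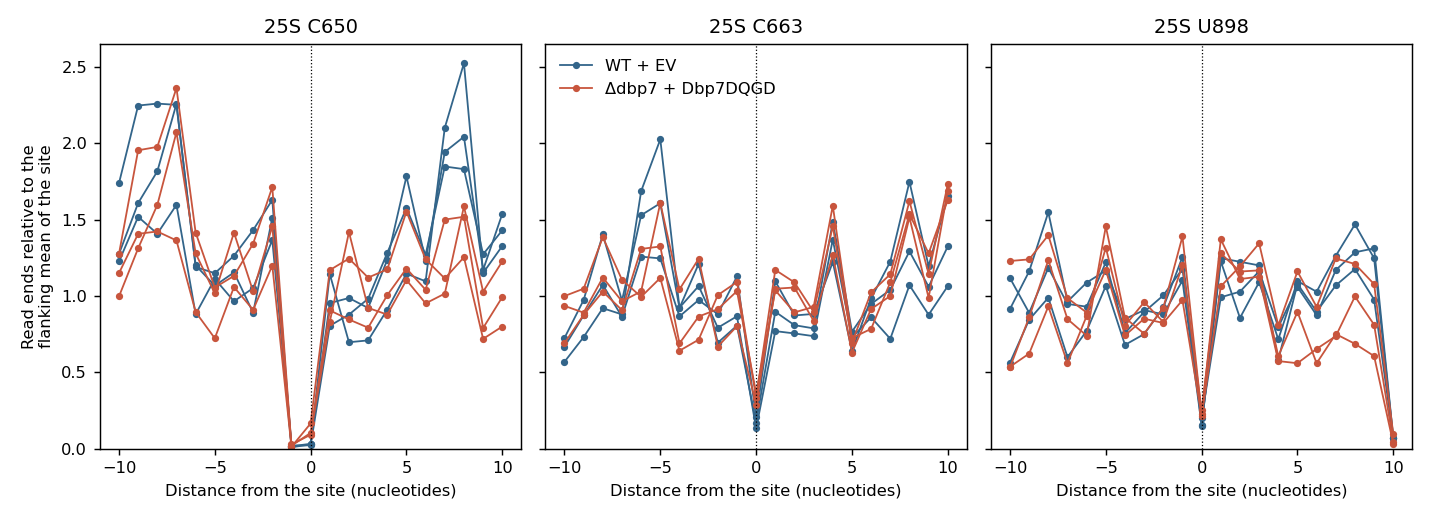
Read ends at each nucleotide, relative to the flanking mean of the central site, plotted against the distance from 25S C650, C663 and U898 in nucleotides, with 1 line per library (blue WT + EV, red Δdbp7 + Dbp7DQGD). Ends drop at distance 0 in all 6 libraries, less far in the red ones, and also at neighboring methylated nucleotides (A649 beside C650, G908 after U898).

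The 9 calls depended on single libraries. Limma called 0, 2 and 4 sites without WT + EV replicate 1, 2 and 3, and 3, 5 and 3 sites without Δdbp7 + Dbp7DQGD replicate 1, 2 and 3. A fit of the 6 libraries alone called 0, with 13 sites at an unadjusted p under 0.05, as many as in the fit of all 12. With the paired libraries of each set as a random block 6 of the 9 passed, without U898, A2220 and A2640.

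Of the other sites of interest, U2347, guided by snR65, had the largest difference of all. It scored 0.679, 0.783 and 0.607 in WT + EV and 0.574, 0.426 and 0.487 in Δdbp7 + Dbp7DQGD, without overlap but with a wide spread (-0.194, SE 0.0625, adjusted p = 0.0611). C2197, guided by snR76, scored 0.923, 0.942 and 0.951 against 0.863, 0.860 and 0.736 (-0.119, SE 0.0431, adjusted p = 0.0902). C2948, guided by snR69, scored 0.687, 0.724 and 0.706 against 0.667, 0.853 and 0.815 (0.0727, adjusted p = 0.455), with 2 libraries above and 1 below the wild-type range. The groups were apart without passing at 4 further sites that were lower, 18S A974 (-0.00977) and 25S A817 (-0.0286), U1888 (-0.0213) and G2619 (-0.0123), and at 1 that was higher, 25S A2281 (0.0312). In all, the libraries did not overlap at 15 sites that were lower (27.3%) and 1 that was higher (1.82%). The 5 largest differences that did not pass were at U2347, A807 (-0.128), C2197, U2421 (0.0928) and 18S C414 (0.0836), with adjusted p from 0.0611 to 0.567. At A807, U2421 and C414 the authors' pooled overview departs from the library values, with differences of -0.0441, -0.0803 and -0.059, so that the sign at U2421 and C414 depends on the source.

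By position, the sites that passed lay along the 25S rRNA from C650 to U2729. Of the 10 sites from A649 to G908, 10 were lower and 5 passed, with a median difference of -0.0433, against a median of -0.00917 over all 55 sites. From A1133 to G1450, 1 of 4 sites passed (median -0.0214), and from U1888 to U2347 1 of 9 (median -0.0332). From U2417 to U2729, 2 of 6 passed (median -0.00849), and of the 8 sites from G2791 to C2959, 4 were lower and 0 passed (median -0.000585). In the 18S rRNA, 8 of 18 sites were lower and 0 passed (median 0.00356). By base, the medians were -0.0396 at 10 methylated C, -0.00909 at 20 A, -0.00457 at 10 U and -0.00276 at 15 G. Of the other targets of U18, U24, snR40, snR47 and snR51, namely A649, C1437 and G1450 of the 25S and G1271, A619 (0.00904) and A100 (0.0427) of the 18S rRNA, 0 passed.

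The score pools 5′ and 3′ read ends, which the files also list separately, in nearly equal numbers in every library (49.88% to 49.97% were 5′ ends). Computed from either kind alone, the score differed sharply in its spread. The median SD over the 55 sites was 0.0065 in WT + EV and 0.01003 in Δdbp7 + Dbp7DQGD with 5′ ends, and 0.0245 and 0.0376 with 3′ ends. The SD from 5′ ends was the smaller at 45 of 55 sites in WT + EV and 48 in Δdbp7 + Dbp7DQGD. The deviations shared by same-numbered libraries of 1 set lay mostly in the 3′ ends (r across sites 0.826 to 0.915 for WT + EV with Δdbp7 + EV, 0.917 to 0.938 for Δdbp7 + Dbp7WT with Δdbp7 + Dbp7DQGD), while in the 5′ ends r was -0.08 to 0.278 and 0.431 to 0.556. These coefficients describe 55 sites of the same libraries and carry no test.

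With 5′ ends alone limma called 23 sites, 20 lower (36.4%) and 3 higher (5.45%), among them all 9 sites above. The groups did not overlap at 25 sites that were lower (45.5%) and 4 that were higher (7.27%). With 3′ ends alone it called 1, A1449. The 14 sites added were 25S G805, A807, A817, C1437, G1450, C2197, G2288, U2347 and U2421 and 18S C1007 and G1572, which were lower, and 25S C2948 and 18S A436 and A619, which were higher. Leaving out each of the 12 libraries in turn, 16 of the 23 passed every time. The 7 that did not were A619, A817, A876, C1437, G1450, C2197 and G2288. At 16 of the 23 sites the difference from 3′ ends had the same sign, and C2948 (-0.0141), A436 (-0.0396), A619 (-0.0851), G1572 (0.127), G805 (0.0182), G1450 (0.029) and U2421 (0.182) were those at which it had not.

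**Figure D3:**
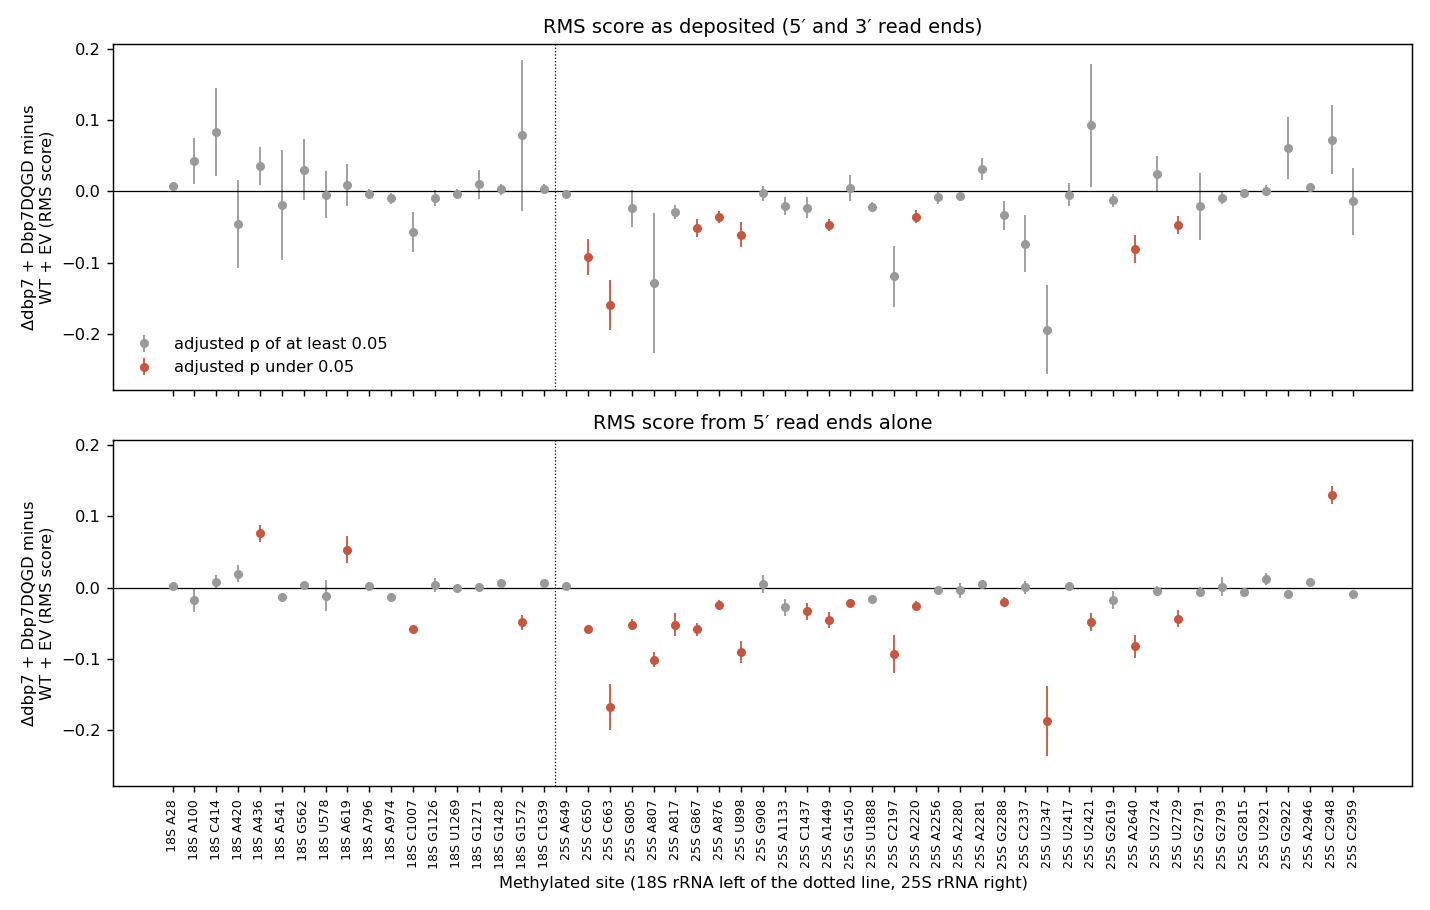
Difference in RMS score, Δdbp7 + Dbp7DQGD minus WT + EV, at each of the 55 sites (points) with the SE of the fit (bars), from all read ends (top) and from 5′ ends alone (bottom), in red where the adjusted p was under 0.05. The bars are shorter in the lower panel, where 23 sites are red against 9 in the upper, most of them in the 25S rRNA and below 0.

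A807 of the 25S rRNA, which overlapped between the groups with all ends, was apart with 5′ ends. It scored 0.984, 0.978 and 0.981 in WT + EV and 0.903, 0.881 and 0.856 in Δdbp7 + Dbp7DQGD, a difference of -0.101 (SE 0.0102, adjusted p = 2.88e-05). In Δdbp7 + Dbp7WT it stood at 0.974, 0.972 and 0.975, just under the wild-type range. G805, 2 nucleotides before it, fell from 0.950, 0.950 and 0.955 to 0.906, 0.913 and 0.880 (-0.0517, adjusted p = 0.000853). C1007 of the 18S rRNA behaved like A807, with 0.979, 0.983 and 0.978 in WT + EV, 0.931, 0.918 and 0.919 in Δdbp7 + Dbp7DQGD (-0.0579, SE 0.0063, adjusted p = 4.22e-05) and 0.981, 0.979 and 0.981 in Δdbp7 + Dbp7WT. G1572 of the 18S rRNA, a target of snR57, fell by 0.0486 (adjusted p = 0.00399), from 0.930, 0.942 and 0.908 to 0.877, 0.869 and 0.889. With all ends its difference had the opposite sign and a wide spread, 0.761, 0.880 and 0.476 against 0.711, 0.876 and 0.768 (0.0791, SE 0.106, adjusted p = 0.694). With 5′ ends and within the set, C1007 and G1572 differed by -0.058 and -0.0493.

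With 5′ ends C650 scored 0.980, 0.981 and 0.977 against 0.925, 0.918 and 0.921 (-0.0577, adjusted p = 2.88e-05), and against Δdbp7 + Dbp7WT, at 0.980, 0.964 and 0.982, the difference was -0.0538. C663 differed by -0.167 (adjusted p = 0.00237), U898 by -0.0902 (adjusted p = 0.00136) and A2640 by -0.0823 (adjusted p = 0.00256). U2347 and C2197, which had not passed with all ends, differed by -0.187 (adjusted p = 0.0119) and -0.0927 (adjusted p = 0.0175), and U2347 did not pass with the 6 libraries alone (adjusted p = 0.0562). All 6 sites named by the study passed with 5′ ends, 5 lower and C2948 higher. They were chosen on these libraries, so this is no independent evidence. Within the set, limma called 14 of 55 sites with 5′ ends, all lower (25.5%), and A2640 (-0.0351, adjusted p = 0.142) and C2197 (-0.0643, adjusted p = 0.109) were not among them. Between Δdbp7 + Dbp7DQGD and Δdbp7 + EV, across the library sets, it called 0 of 55 with 5′ ends, which does not show the sites to be equal.

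C2948 and A436 showed another pattern. With 5′ ends C2948 scored 0.786, 0.736 and 0.727 in WT + EV and 0.869, 0.888 and 0.882 in Δdbp7 + Dbp7DQGD (0.13, SE 0.0127, adjusted p = 2.88e-05). It scored 0.893, 0.898 and 0.904 with plasmid-borne wild-type Dbp7 and 0.898, 0.906 and 0.906 in Δdbp7 + EV. All 9 libraries of the deletion strain, with and without active helicase, were therefore above the 3 wild-type ones. A436, a target of snR87 in the 18S rRNA, scored 0.848, 0.886 and 0.859 in WT + EV and 0.963, 0.927 and 0.931 in Δdbp7 + Dbp7DQGD (0.0761, SE 0.0123, adjusted p = 0.000864), and 0.967, 0.953 and 0.949 in Δdbp7 + Dbp7WT. These were the sites at which Δdbp7 + Dbp7WT differed from WT + EV with 5′ ends (2 of 55, both higher, 3.64%), by 0.148 at C2948 and 0.092 at A436. Their windows are given because they mark this pattern.
25S C2948: agggaacgugagCuggguuuagacc
18S A436: cagcaggcgcgcAaauuacccaauc

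**Figure D4:**
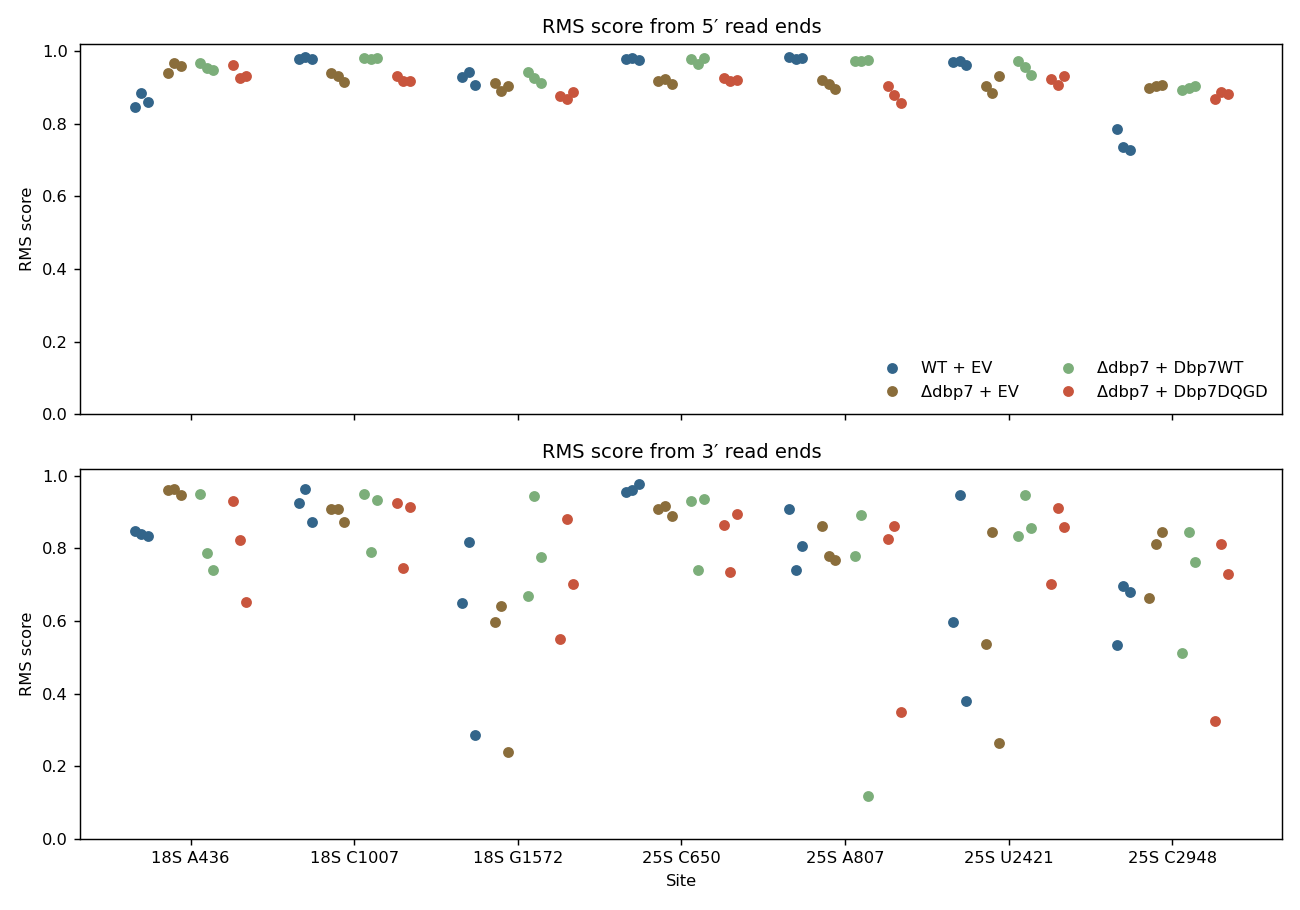
RMS score of 7 sites from 5′ ends (top) and from 3′ ends (bottom), with 1 point per library and 3 per group (blue WT + EV, brown Δdbp7 + EV, green Δdbp7 + Dbp7WT, red Δdbp7 + Dbp7DQGD). In the upper panel the libraries of a group lie close together, with brown and red below blue and green at C1007, C650 and A807 and blue alone below the rest at A436 and C2948, and in the lower panel they scatter.

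As a position without known methylation, 25S G2395 scored 0.003, 0.214 and 0.000 in WT + EV and 0.0938, 0.21 and 0.0827 in Δdbp7 + Dbp7DQGD, so that single libraries reached 0.21 on background. With 5′ ends it scored 0.000 in all 3 wild-type libraries and 0.000, 0.0377 and 0.1 with inactive Dbp7.

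To look beyond the known sites, read ends at 5172 of the 5196 nucleotides of the 18S and 25S rRNAs were compared relative to their flanking means. With both kinds of ends edgeR called 0 nucleotides (0.0%), with 315 at an unadjusted p under 0.05, and DESeq2 called 3, namely C650, A1449 and G2007 of the 25S rRNA. The nucleotides outside the 55 sites with the smallest p were 25S C3093, G2527, A1757 and C2235 and 18S U29 (1.37- to 1.59-fold more ends with inactive Dbp7) and 25S G2007, A1477 and U447 and 18S A1227 and G1672 (1.33- to 1.89-fold fewer), at adjusted p from 0.502 to 0.736. At C3093 the relative number of ends was 0.889 to 1.09 in WT + EV and 0.945 to 1.06 in Δdbp7 + EV. It was 1.28 to 1.36 with plasmid-borne wild-type Dbp7 and 1.32 to 1.41 with the inactive protein. The library sets did not overlap at C3093, U29, G2007, A1477, U447 and A1227, and overlapped at G2527, A1757, C2235 and G1672. Whether these differences belong to the strain or to the library set was not tested. With 5′ ends, 6 of 5141 nucleotides were called, 5 with more ends (0.0973%) and 1 with fewer (0.0195%). Of these, A807, C650, C1007 and C2948 are known sites, and 18S G1035 and 25S G727 are not.

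G1035 had the largest change of the scan, 15.4-fold more 5′ ends with inactive Dbp7 (adjusted p = 0.00141). It had 37, 27 and 9 such ends in WT + EV and 344, 371 and 85 in Δdbp7 + Dbp7DQGD. Relative to the flanking mean these were 0.0485, 0.0468 and 0.0285 against 0.967, 0.732 and 0.282, so that 5′ ends were rare in wild type and near the flanking level in 1 library with inactive Dbp7. The relative number was 0.121, 0.0757 and 0.0558 in Δdbp7 + Dbp7WT and 0.407, 0.442 and 0.394 in Δdbp7 + EV. With both kinds of ends the nucleotide did not pass (1.18-fold, adjusted p = 0.939). The 3′ ends there numbered 2110, 1036 and 326 in WT + EV and 263, 705 and 368 in Δdbp7 + Dbp7DQGD. The window around G1035, with this nucleotide in capitals, is shown beside that of C1007, the methylated site before it.
18S C1007: augaucagauacCgucguagucuua
18S G1035: auaaacuaugccGacuagggaucgg
At G727 the relative number of 5′ ends was 0.167, 0.249 and 0.233 in WT + EV and 0.504, 0.764 and 0.702 in Δdbp7 + Dbp7DQGD (3.06-fold, adjusted p = 0.0361). It was 0.675, 0.666 and 0.829 in Δdbp7 + Dbp7WT and 0.164, 0.16 and 0.319 in Δdbp7 + EV, so that both groups of the second library set were high at G727 and both of the first were low.

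The files also count read ends in other RNAs, and these were compared as ratios to 18S rRNA. The U1, U2, U4, U5 and U6 snRNAs are the RNA parts of the spliceosome. Read ends of the 25S rRNA per 18S end were 2.04, 2.02 and 2.15 in WT + EV and 1.495, 1.44 and 1.35 in Δdbp7 + Dbp7DQGD, a level of 0.689 of wild type. A ratio does not tell less 25S from more 18S rRNA. With 3 libraries against 3 the exact permutation test could not go below p = 0.1, which this ratio reached. In limma over 7 such ratios and 12 libraries the decrease had an adjusted p of 1.65e-05. In Δdbp7 + Dbp7WT the ratio was 2.17, 2.19 and 2.09, close to wild type. The decrease was seen in each stretch of the 25S rRNA, with 0.667 to 0.735 of the wild-type level in 7 segments. The share of 25S ends in the segment that holds U2417 to U2729 was the only one of the 7 without overlap, with a mean of 10.6% in WT + EV and 11.3% in Δdbp7 + Dbp7DQGD (exact p = 0.1). This p was not adjusted for the 7 segments, so the segment is not shown to differ.

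The 5.8S rRNA, which is cut from the same precursor as 25S rRNA, gave 0.274, 0.291 and 0.412 ends per 18S end in WT + EV and 0.351, 0.377 and 0.427 in Δdbp7 + Dbp7DQGD. These ranges overlapped (1.20-fold, exact permutation p = 0.3). In Δdbp7 + Dbp7WT, of the same set, the ratio was 0.202, 0.279 and 0.282, below every library of Δdbp7 + Dbp7DQGD. In Δdbp7 + EV it was 0.470 to 0.695. The ratio of 5.8S to 25S rRNA was 0.134, 0.144 and 0.191 in WT + EV against 0.235, 0.262 and 0.317 in Δdbp7 + Dbp7DQGD, a level 1.74-fold higher (exact p = 0.1). It was 0.0931, 0.127 and 0.135 in Δdbp7 + Dbp7WT and 0.337 to 0.498 in Δdbp7 + EV.

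All 5 snRNAs had more read ends per 18S end with inactive Dbp7. Such a ratio does not tell more snRNA from less 18S rRNA. Per the study, 18S rRNA was reduced in cells without active Dbp7, and other RNA classes, such as tRNAs, were relatively higher. U2 had 0.001216, 0.001247 and 0.001284 ends per 18S end in WT + EV and 0.003364, 0.003328 and 0.003462 in Δdbp7 + Dbp7DQGD (2.71-fold). U1 rose 2.54-fold, from 0.00043 to 0.000471 up to 0.00107 to 0.0012. U4 went from 0.000193, 0.000232 and 0.0003 to 0.00122, 0.00139 and 0.00157 (5.83-fold), U5 rose 4.75-fold and U6 4.31-fold. Adjusted p was 1.66e-08 for U2, 3.24e-08 for U1, 1.08e-06 for U6, 1.29e-06 for U4 and 7.38e-06 for U5 in limma, and the exact p was 0.1 for each. The ratios of U4 and U6 to U2 were also higher. U4 per U2 end was 0.159, 0.186 and 0.234 against 0.363, 0.418 and 0.453, and U6 per U2 end 0.299, 0.341 and 0.379 against 0.490, 0.525 and 0.604 (exact p = 0.1 each). U1 per U2 end overlapped between the groups (exact permutation p = 0.4). In Δdbp7 + Dbp7WT, of the same set, U4 had 0.000141 to 0.000248 ends per 18S end and U2 had 0.00107 to 0.00128. Both were also high in Δdbp7 + EV, with 0.00118 to 0.00164 for U4 and 0.00293 to 0.0031 for U2. U14 had 0 ends and each U3 copy 0 to 6 per library, too few for a comparison. Growth rate and library set were not tested as parts of these differences.

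**Figure D5:**
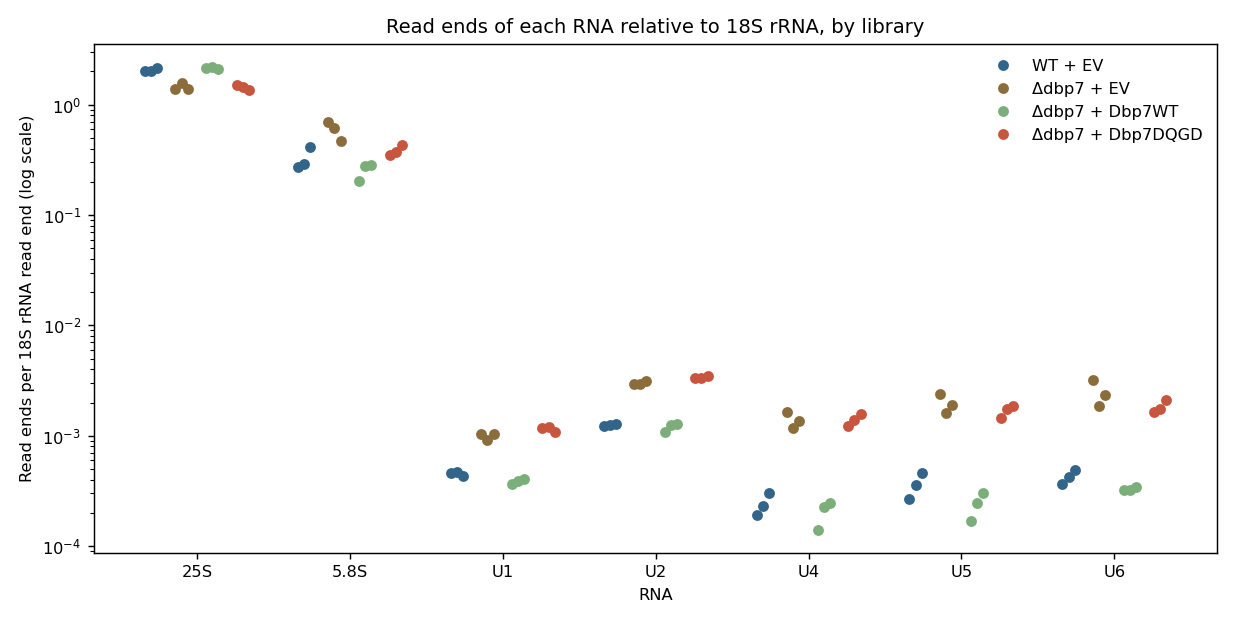
Read ends of 7 RNAs per read end of 18S rRNA (log axis), with 1 point per library and 3 per group (blue WT + EV, brown Δdbp7 + EV, green Δdbp7 + Dbp7WT, red Δdbp7 + Dbp7DQGD). Red lies below blue for 25S rRNA and above it for the 5 snRNAs, most of all for U4, and green lies beside blue.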

How the data were processed

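Per the series, each group was made in biological triplicate, and replicate numbers came from the titles. Per the methods of the study, RNA was cleaved by alkaline hydrolysis, and fragments of selected length were ligated to adapters and sequenced on an Ion Proton. Per the submitters' processing notes, cutadapt 2.0 and Bowtie2 2.3.4.1 were used. The sources used here do not name a genome build. For 8112 nucleotides of 11 RNAs the authors deposited raw counts of read starts (5′), read stops (3′) and both together, and the fraction methylated (RMS score, 0 to 1, negative values set to 0). An overview holds the authors' mean fraction per group, corrected in a few cases for a barcode effect, and it differed by over 0.001 from the library means at 5 sites. A score calculated anew from these counts differed from theirs by at most 5.00e-10. Further per-sample score columns (24) were not used.

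Scores of single libraries were compared using limma 3.58.1 (R 4.3.3). The model had a mean for each of the 4 groups, fitted to the 12 libraries, with Benjamini-Hochberg adjustment over 55 sites (adjusted p under 0.05 passed). Read-end counts were scanned with edgeR 4.0.16 (quasi-likelihood test, flanking mean as offset and of at least 50 in every library) and DESeq2 1.42.0. All tests were two-sided. RNA ratios were compared with exact permutation tests of log2 values. Fits were tested on simulated data. The flanking mean at the sites was 269 to 7177 read ends in the 6 libraries. Reads carry no molecular identifiers, so the number of independent molecules is unknown. Positions are those within each rRNA in the deposited files, which match RDN18-2 and RDN25-1 of the R64 assembly in length. Guide snoRNAs are named as background.

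Sites named in the text are those that passed, the 6 the study names, those whose groups did not overlap, the 5 largest differences that did not pass, second targets of the guides of passing sites, and, from the scans, up to 5 nucleotides per direction outside the 55 sites. The sites, lists and tests were chosen with earlier results of these data known. The further settings tried for the 5′-end score, the scan with 5′ ends and limma on RNA ratios were added after seeing the data.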

Additional observations from a re-analysis of the deposited data

How the results depend on the processing

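The count of 9 sites that passed was 9 with robust moderation, with an unweighted or a 2-nucleotide flank and with negative scores kept, 7 on the logit scale, 6 in edgeR and 11 in DESeq2. With the 2-nucleotide flank U898 was lost (adjusted p = 0.121) and C2197 gained (adjusted p = 0.0321) in limma. U898 did not pass in 18 of the settings tried, the most of the 9 sites. It was 0 with the 6 libraries alone, 23 with 5′ ends, 1 with 3′ ends and 1 in the methods' unpaired Student test after adjustment (12 before), and 0 to 10 without single libraries. Same-numbered libraries of WT + EV and Δdbp7 + Dbp7DQGD did not deviate together (r across sites from -0.157 to 0.0946), so their numbers pair nothing. With the replicate block over 12 libraries 11 sites passed, with U898 lost (adjusted p = 0.0723) and A817, C2337 (both adjusted p = 0.0433) and U2347 (adjusted p = 0.0454) gained. With the paired libraries of each set as a random block (estimated correlation 0.755) 6 passed, and U898 (adjusted p = 0.143), A2220 and A2640 (both adjusted p = 0.111) did not.

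The count of 23 from 5′ ends was 21 with the 6 libraries alone (A619, G2288 and U2347 lost, 25S U1888 gained), 23 with the replicate block, 24 in edgeR, 23 in DESeq2, 15 in the Student test and 18 to 23 without single libraries. The scan called 0 nucleotides in all settings with edgeR on both ends, including the replicate block (0 called, 487 at an unadjusted p under 0.05), but 3 in DESeq2 and 6 with 5′ ends. The log2 ratios to 18S rRNA passed in limma at -0.54 for 25S rRNA and 1.35, 1.44, 2.54, 2.25 and 2.11 for U1, U2, U4, U5 and U6, where the exact test cannot pass. Without single libraries they were -0.57 to -0.50, 1.31 to 1.39, 1.42 to 1.46, 2.39 to 2.71, 2.04 to 2.44 and 2.00 to 2.21.

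Against the difference from all read ends, the sign turned at 14 of 55 sites with 5′ ends, of which 3 passed there (G1572, G1450 and U2421), and at 9 with 3′ ends. None of these had passed with all ends. Among them were, with 5′ ends, 18S A100 (-0.0175) and 25S A649 (0.00229), G1450 (-0.0212) and U2421 (-0.0477), and, with 3′ ends, 18S A619 (-0.0851) and 25S C2948 (-0.0141). The sign also turned with a 2-nucleotide flank at A619 (-0.0013), on the logit scale at G1450 (-0.13), and in the authors' overview at 18S C414 (-0.059), 18S A420 (0.0181, against -0.0458) and U2421 (-0.0803). Without single libraries A619 ranged from -0.0171 to 0.0375, 18S G1271 from -0.00282 to 0.0276 and G1450 from -0.0157 to 0.0219. C650 had 20 to 104 read ends in the WT + EV libraries, A2220 24 to 82, U2729 60 to 218 and A1449 62 to 122. The scores of these sites there rest on few counts.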
